A study of Mus musculus with 29 samples.

Results

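MHC class II antigen presentation genes were examined in brown adipose tissue (BAT) and gastrocnemius skeletal muscle (SkM) of mice under calorie restriction and treadmill training. The genes were chosen by symbol, with no measured value in the rule: H2-Aa, H2-Ab1, H2-Eb1, H2-DMa, H2-DMb1, Cd74, Ciita and Ctss. All 8 were found among the 24770 rows of the count table, each in a single row. All mice were male C57BL/6J wild-type animals, 8 weeks old at the start, and were followed for 8 weeks. Control mice ate chow freely and stayed sedentary, CR mice were brought down stepwise to 70% of baseline food intake, EX mice ran on a treadmill at 12 m/min, and CREX mice received both treatments. All groups were fasted before harvest, and tissues were taken a day after the last run. BAT was sequenced from 3 control, 4 CR, 4 EX and 4 CREX mice, and SkM from 4 control, 3 CR, 4 EX and 3 CREX mice.

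MHC class II molecules are pairs of an alpha and a beta chain that carry peptides from endocytosed proteins to the cell surface, where CD4 T cells read them. The invariant chain CD74 guides newly made class II molecules to endosomes, cathepsin S trims it there, and the DM heterodimer then exchanges its last fragment for antigen peptides. CIITA is the coactivator that switches on the genes of the class II chains, CD74 and DM. In most tissues dendritic cells, macrophages and B cells are the main class II expressing cells, with more cell types joining under interferon gamma.

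Each library held between 21047247 and 24919372 expected counts, so that 3 counts stood at 0.12 to 0.143 counts scaled to the library total (CPM). CPM values are scaled with edgeR's TMM factors within a tissue unless stated otherwise. The tissue labels were checked with 5 brown adipocyte genes, whose sums lay at 2767 to 6597 CPM for BAT libraries and at 19.4 to 78.8 CPM for SkM libraries, and with 10 skeletal muscle genes, whose sums lay at 104700 to 176100 CPM for SkM. In BAT the muscle genes ranged from 2.93 to 5794 CPM between libraries, and in 3 libraries (CREX replicate 3, EX replicates 2 and 3) they exceeded 3000 CPM. Each library is taken as 1 mouse, and p-values measure the spread between these libraries.

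RefSeq promoters of GRCm38.p6, 250 bases before to 50 bases after a gene's start, were examined for 5 of the 8 genes. Those of H2-Ab1, Ciita and Cd74 were not examined. The promoters of the classical chains H2-Aa and H2-Eb1, of the DM chain H2-DMb1 and of the protease gene Ctss are shown. Each held a match to a motif given below, and the H2-DMa promoters, which held none, are not printed. All 8 genes fell in BAT under CR. In SkM of CR against control mice H2-Aa and H2-Eb1 also fell, and H2-DMb1 and Ctss did not pass the test. H2-Aa lies at chr17:34282744-34287823, H2-Eb1 at chr17:34305867-34316674, H2-DMb1 at chr17:34153191-34160229 and Ctss at chr3:95526786-95556405. H2-Ab1 (chr17:34263227-34269418) and H2-DMa (chr17:34119693-34139101) are in the same stretch of chromosome 17. Capitals mark the Y box core TGATTGG, the X box core AACNGATG and the interferon-stimulated response element core GAAANNGAA, all searched on both strands, and no matches overlapped in the sequences shown. The motifs were chosen after the sequences had been seen.
H2-Aa, chr17:34287774-34288073, minus strand: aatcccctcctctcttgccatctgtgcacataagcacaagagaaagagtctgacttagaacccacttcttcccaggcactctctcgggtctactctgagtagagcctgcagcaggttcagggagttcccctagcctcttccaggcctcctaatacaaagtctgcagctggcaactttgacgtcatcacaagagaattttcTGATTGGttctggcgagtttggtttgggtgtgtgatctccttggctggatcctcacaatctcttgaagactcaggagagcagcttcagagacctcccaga
H2-Eb1, chr17:34305617-34305916, plus strand: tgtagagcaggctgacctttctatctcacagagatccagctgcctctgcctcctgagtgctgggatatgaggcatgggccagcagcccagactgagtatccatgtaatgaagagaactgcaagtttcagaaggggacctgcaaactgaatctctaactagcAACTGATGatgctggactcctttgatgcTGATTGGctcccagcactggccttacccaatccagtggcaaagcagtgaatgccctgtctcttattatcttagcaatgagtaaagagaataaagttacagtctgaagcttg
H2-DMb1, chr17:34152941-34153240, plus strand: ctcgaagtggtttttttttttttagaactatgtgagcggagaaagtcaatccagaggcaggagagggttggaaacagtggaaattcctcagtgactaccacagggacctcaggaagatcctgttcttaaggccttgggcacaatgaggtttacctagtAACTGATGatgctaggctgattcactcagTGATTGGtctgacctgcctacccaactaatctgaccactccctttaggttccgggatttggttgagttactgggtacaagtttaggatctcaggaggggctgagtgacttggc
Ctss, chr3:95526536-95526835, plus strand: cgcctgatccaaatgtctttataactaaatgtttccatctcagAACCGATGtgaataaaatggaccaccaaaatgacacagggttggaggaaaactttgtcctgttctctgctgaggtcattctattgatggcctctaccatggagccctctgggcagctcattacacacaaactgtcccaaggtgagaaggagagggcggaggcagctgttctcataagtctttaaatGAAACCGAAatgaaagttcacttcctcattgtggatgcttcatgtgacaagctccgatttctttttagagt

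The Y box core began 50 bases before the start of H2-Aa, 61 bases before that of H2-Eb1 and 63 bases before that of H2-DMb1, and 7.82% of all 32851 promoters held it on either strand. The X box core, found in 2.32% of promoters, preceded the Y box by 20 bases in H2-Eb1 and by 21 bases in H2-DMb1. The order X box then Y box on the plus strand within 30 bases occurred in 6 promoters of the whole set (0.0183%). Besides H2-Eb1 and H2-DMb1 these belonged to H2-DMb2, H2-Eb2, BC051142 and G3bp2. The Ctss promoter held no Y box core but an X box core and the interferon-type motif, which 8.56% of promoters contain. Neither H2-DMa promoter (chr17:34122582-34122881 and chr17:34125268-34125567) held any of the 3 motifs. Both windows lie inside the gene's listed span, which begins at 34119693. Other starts of H2-DMa were not searched, so the absence holds for these windows only.

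Calorie restriction and BAT were compared first in sedentary mice, between CR and control. All 8 class II genes fell in BAT of CR mice, by 1.85-fold for Ctss to 6.07-fold for Ciita, with a median log2 fold change of -1.53 against 0.0045 over all genes tested. A gene counted as called when edgeR's quasi-likelihood test gave an adjusted p (Benjamini-Hochberg) below 0.05 and the levels differed by more than 1.5-fold. These thresholds were met by 10.7% of the 13323 genes tested, and 6.86% were lower in CR. The summed level of the 8 genes was 176 to 220 CPM in the control and 57.7 to 77.2 CPM in the CR libraries. Fewer class II expressing cells and less class II RNA per cell cannot be told apart in bulk tissue.

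H2-Aa, the alpha chain of the I-A molecule, stood at 42.2, 47.8 and 50.8 CPM in the control mice and at 17.3, 20.4, 13.4 and 14.9 CPM in the CR mice. Its beta chain H2-Ab1 measured 25.8, 28.8 and 36.3 CPM in the control and 9.68, 11.2, 8.16 and 8.38 CPM in the CR mice. RNA of H2-Eb1, which encodes an I-E beta chain, measured 24.96, 27.7 and 34.2 CPM in the control and 10.4, 11.9, 8.78 and 8.60 CPM in the CR mice. The I-E molecule itself was not measured. The CR and control libraries did not overlap for any of the chains, and every CR library stood well below the lowest control. The log2 fold changes were -1.51 ± 0.14 (SE) for H2-Aa, -1.70 ± 0.14 for H2-Ab1 and -1.55 ± 0.14 for H2-Eb1, and edgeR's adjusted p was 0.000196, 0.000112 and 0.000164.

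Cd74, the invariant chain, was at 72.6, 75.5 and 85.4 CPM in the control mice and at 26.2, 27.4, 23.7 and 23.3 CPM in the CR mice. It ranked 4th of all genes tested by p (log2 fold change -1.63 ± 0.09, edgeR adjusted p = 3.81e-06). H2-DMa and H2-DMb1, the chains of the peptide exchange factor, fell by less, to 1.66 CPM ± 0.31 (SD, n = 4) from 3.95 CPM ± 0.52 (n = 3) and to 1.06 CPM ± 0.15 from 2.46 CPM ± 0.20. Their log2 fold changes were -1.25 ± 0.19 and -1.21 ± 0.20, with edgeR adjusted p of 0.00159 and 0.00226. H2-DMb2, a close paralogue of H2-DMb1, averaged 0.0835 CPM in the control mice. Reads shared between the paralogues may be divided between them by the estimated counts, although all values of H2-DMb1 were whole numbers.

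Ciita, the coactivator, had the lowest level and the largest fold change of the 8. Its estimated counts were 27, 31 and 30 in the control libraries (1.18, 1.25 and 1.24 CPM) and 4, 5, 3 and 6 in the CR libraries (0.174, 0.237, 0.124 and 0.258 CPM). The log2 fold change was -2.60 ± 0.30 (edgeR adjusted p = 0.00041). Ciita passed the filter on low counts through the control libraries, where it was high, so its fold change rests on few counts in CR. Ctss, which encodes cathepsin S, ran from 3.80 to 4.58 CPM in the control and from 1.32 to 3.41 CPM in the CR mice, without overlap. Its log2 fold change of -0.89 ± 0.27 was just called (edgeR adjusted p = 0.0408), and leaving out CR replicate 1 or 4 or any control replicate lifted the adjusted p to 0.083 to 0.128, as did 1 fit over all BAT groups (0.14). All libraries of CR lay below all control libraries for all 8 genes, a pattern found in 16.8% of genes tested.

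**Figure D1:**
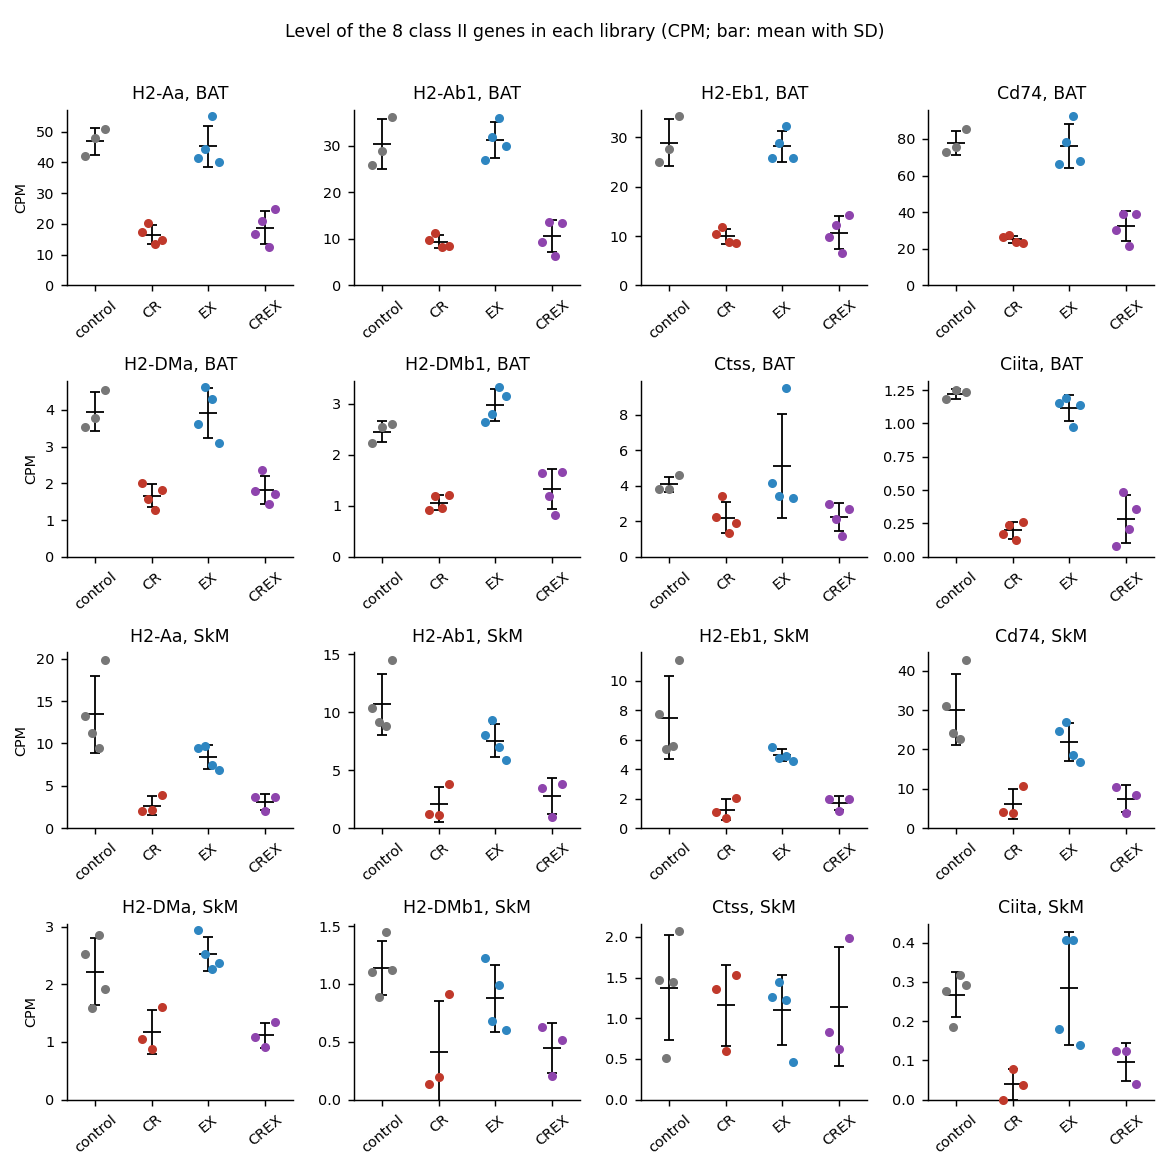
TMM-scaled CPM (y axis, from 0) of each of the 8 class II genes in every library of BAT (upper 8 panels) and SkM (lower 8 panels), by group, with the mean and SD (bars cut at 0). In BAT the CR and CREX points lie below the control and EX points in 7 of 8 panels, the exception being Ctss, where the highest CR point (3.41 CPM) passes the lowest EX point (3.33 CPM), while Ctss in SkM ranges over 0.466 to 2.08 CPM with all groups overlapping.

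In mice that also trained, CREX against EX, class II genes were again lower in BAT. Of the 8 genes, 7 fell, and Ctss, at -1.20 ± 0.42 on the log2 scale, missed the threshold (edgeR adjusted p = 0.12) and was called by DESeq2 (adjusted p = 0.0268). Genes past the thresholds made up 4.48% of those tested and the lower ones 2.63%. Cd74 stood at 66.3, 78.1, 92.4 and 67.9 CPM in the EX mice and at 30.2, 38.8, 21.4 and 39.2 CPM in the CREX mice. H2-Aa measured 41.5, 44.3, 55.1 and 40.3 CPM in EX and 16.8, 20.8, 12.4 and 24.99 CPM in CREX. H2-Ab1, at 27.0, 31.9, 36.1 and 29.9 CPM in EX, was at 9.34, 13.6, 6.23 and 13.3 CPM in CREX. CREX replicate 3 was the lowest library for all 3 genes and EX replicate 3 the highest, yet the groups did not overlap.

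The log2 fold changes in CREX against EX were -1.28 ± 0.21 for H2-Aa, -1.56 ± 0.24 for H2-Ab1, -1.40 ± 0.21 for H2-Eb1 and -1.24 ± 0.20 for Cd74 (edgeR adjusted p = 0.0119, 0.00924, 0.00823 and 0.0118). H2-DMa and H2-DMb1 fell by 1.11 and 1.16 on the log2 scale, with standard errors of 0.20 and 0.23 and edgeR adjusted p of 0.0105 and 0.0166. Ciita had 25, 26, 24 and 26 counts in the EX and 2, 11, 5 and 9 counts in the CREX libraries (log2 fold change -1.98 ± 0.40, edgeR adjusted p = 0.0173). Here it passed the filter through the EX libraries. All 8 genes were lower in every CREX than in every EX library, as were 8.87% of the genes tested. Muscle genes summed to 946 to 5794 CPM in the CREX and 6.43 to 3642 CPM in the EX libraries, and without the 3 libraries above 3000 CPM the calls fell from 7 to 4, the chains and Cd74 (log2 fold changes -0.90 to -1.24), while H2-DMa, H2-DMb1 and Ciita were at -0.79, -0.94 and -1.90 on the log2 scale with edgeR adjusted p of 0.122, 0.0954 and 0.115 in the 5 libraries that remained. The part of muscle RNA in the result was not tested further.

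Training alone left no call among these genes in BAT. In EX against control, 0 of 8 genes were called by edgeR, 0 had an unadjusted p under 0.05 and DESeq2 called 0, where edgeR called 0% of all genes. The log2 fold changes ran from -0.13 for Ciita to 0.34 for Ctss. Ctss was at 9.47 CPM in EX replicate 3 and at 3.33 to 4.16 CPM in the other EX mice. In CREX against CR, edgeR called 0 of the 7 genes tested, with 0 at an unadjusted p under 0.05 and 0 by DESeq2 (0.00763% of all genes were called by edgeR). Their log2 fold changes lay between 0.02 for Ctss and 0.37 for Cd74. Ciita did not pass the filter on low counts there.

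One fit over the 4 BAT groups gave an average CR effect below 0 for all 8 genes, with edgeR adjusted p from 2.44e-06 for Cd74 to 0.0107 for Ctss. The log2 fold changes were -1.39 for H2-Aa, -1.63 for H2-Ab1, -1.47 for H2-Eb1, -1.44 for Cd74, -1.18 for H2-DMa, -1.19 for H2-DMb1, -2.29 for Ciita and -1.04 for Ctss. Ciita entered this fit through the control and EX groups, where it was high. The median of -1.42 compares with -5e-04 over all genes, of which 11.8% were called and 7.83% called lower. All 8 calls held with each of the 15 mice left out and without the 3 libraries rich in muscle genes. For the average EX effect, 0 of 8 were called by edgeR, 0 had an unadjusted p under 0.05 and DESeq2 called 0 (0.00718% of genes called by edgeR). For the interaction of CR and EX the counts were 0 of 8, 0 and 0 (0% of genes), with log2 differences from -0.32 for Ctss to 0.63 for Ciita.

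**Figure D2:**
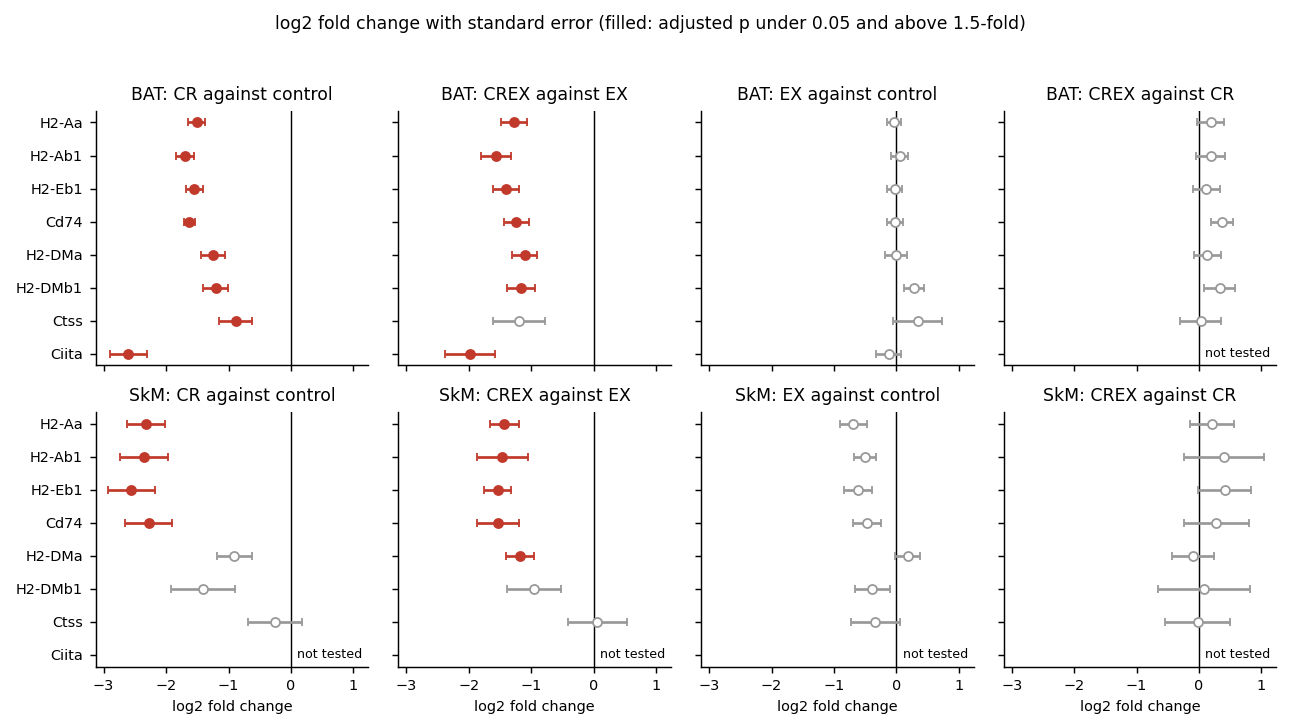
log2 fold change (x axis) with its standard error for the 8 genes in the 4 comparisons of BAT (top) and SkM (bottom), filled for genes past both thresholds. Filled points stand only to the left of 0 and only in the columns CR against control and CREX against EX, and genes not passing the filter on low counts are marked as not tested.

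In BAT the fall of the class II genes went along with lower levels of leukocyte genes. All 4 pan-leukocyte genes fell in the average CR effect, by 0.77 for Cd53 to 1.26 for Ptprc, the CD45 gene, on the log2 scale (median -1.01). Their summed level was 12.2 to 13.8 CPM in the control, 4.99 to 6.38 in the CR, 11.99 to 18.7 in the EX and 5.53 to 9.90 CPM in the CREX mice. Of 11 macrophage genes, Adgre1 and Lyz2 fell (log2 -0.88 and -0.80), Mertk rose (0.68) and 8 were not called, with a list median of -0.53. The macrophage sum was 87.6 to 94.4 CPM in the control, 52.8 to 84.0 in the CR, 93.8 to 148 in the EX and 58.8 to 106 CPM in the CREX mice. The CR libraries lay below all control and EX libraries, and the CREX libraries overlapped the other 3 groups.

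Dendritic and B cell markers were sparse. Of 9 dendritic cell genes 3 could be tested and 0 were called in the average CR effect by edgeR, and their sum was 13.3 to 17.4 CPM in the control, 9.44 to 11.1 in the CR, 13.5 to 15.01 in the EX and 9.79 to 11.5 CPM in the CREX mice, mostly from the transcription factor gene Zbtb46 (log2 -0.49 ± 0.07, adjusted p = 6.69e-05, below the fold threshold). The 9 B cell genes in the table summed to 2.52 to 3.26 CPM in the control and 0.618 to 0.774 CPM in the CR mice, 1.88 to 3.42 CPM in EX and 0.537 to 0.798 CPM in CREX mice. Of the 3 tested, Cd79a and Cd79b, the signalling chains of the B cell receptor, fell, and the other was not called. Cd79a averaged 0.599 CPM ± 0.129 (SD, n = 3) in the control and 0.0437 CPM ± 0.0026 (n = 4) in the CR mice, so a ratio rests on about 1 count per CR library. No listed T cell gene passed the filter, and all 6 in the table averaged under 0.5 CPM. Of the neutrophil list 1 gene was tested and was not called.

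Genes of other cell types of the depot moved as well. The brown adipocyte sum was 5507 to 6597 CPM in the control, 4811 to 5689 in the EX, 3563 to 4362 in the CR and 2767 to 4061 CPM in the CREX mice, and groups with and without CR did not overlap. Ucp1, the uncoupling protein gene of brown fat, makes up most of this sum and fell (log2 -1.01 ± 0.13, edgeR adjusted p = 8.28e-05). Ppargc1a fell and Elovl3 rose (log2 -0.82 and 0.89), and Cidea and Dio2 were not called, these 4 being named after their values were seen. Of 2 lymph node stroma genes tested, Cxcl13, a chemokine gene that draws B cells, rose (log2 2.02 ± 0.43, edgeR adjusted p = 0.00346). Cxcl13 averaged 1.07 CPM ± 1.01 (SD, n = 3) in the control, 0.564 ± 0.436 in the EX, 2.64 ± 0.98 in the CR and 3.83 CPM ± 1.67 in the CREX mice (n = 4 each), opposite in direction to the class II and B cell genes, with overlap between CR and control libraries. Ccl21a, the other gene tested, was at -0.77 ± 0.33 (adjusted p = 0.0847). The part of these cell types in the class II result was not tested.

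Class II RNA was also set against the leukocyte sums of the same library. The 8 genes summed to 12.8 to 18.04 times the pan-leukocyte sum in the control, 10.8 to 12.7 times in the CR, 12.5 to 14.6 times in the EX and 7.33 to 11.6 times in the CREX mice. Relative to the macrophage sum the values were 1.87 to 2.36 in the control, 0.919 to 1.09 in the CR, 1.59 to 1.93 in the EX and 0.686 to 1.30 in the CREX mice. The groups with and without CR did not overlap in the macrophage ratio and, by a narrow margin, overlapped in the pan-leukocyte ratio. These ratios are descriptions, and the part of cell numbers in the result was not tested.

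**Figure D3:**
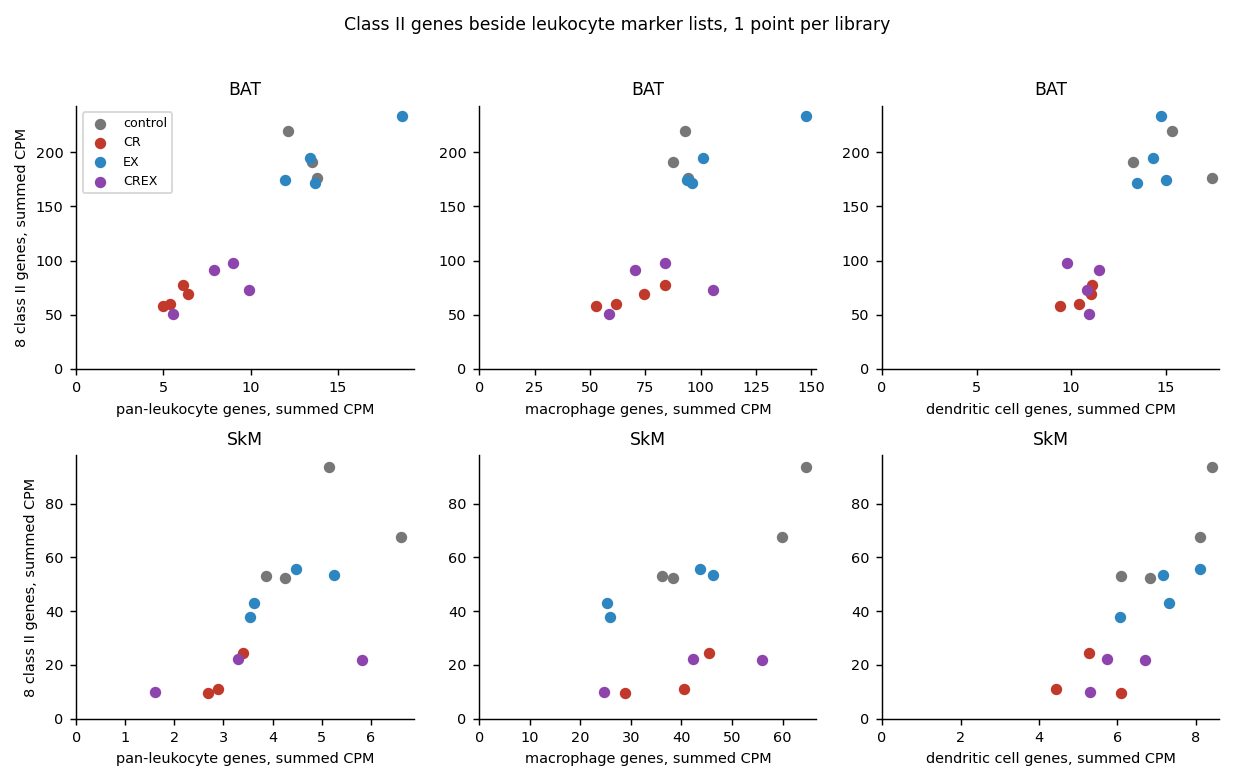
Summed CPM of the 8 class II genes (y axis) against the summed CPM of the pan-leukocyte, macrophage and dendritic cell lists (x axes), 1 point per library, for BAT (top) and SkM (bottom). In BAT the CR and CREX libraries lie at 50.4 to 98.2 CPM for class II and the control and EX libraries at 172 to 234 CPM, and in SkM the CR and CREX libraries lie at 9.45 to 24.5 CPM for class II while their macrophage sums of 24.8 to 56.0 CPM overlap those of the other groups.

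In SkM, calorie restriction again went with lower class II genes, and 4 of 7 genes tested fell in CR against control. These were H2-Aa, H2-Ab1, H2-Eb1 and Cd74, which decreased 4.86-fold to 5.88-fold. Without CR replicate 3 the log2 fold changes of H2-Ab1 and Cd74 went from -2.36 to -3.19 and from -2.28 to -2.94, a move of over 1.5-fold. Among the 13173 genes tested, 9.6% were called and 5.32% called lower. The list median was -2.28 against 0.005 over all genes. The 8 genes summed to 67.8, 53.1, 52.4 and 93.7 CPM in the control and to 10.9, 9.45 and 24.5 CPM in the CR mice.

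Cd74 in SkM was at 31.1, 24.3, 22.6 and 42.6 CPM in the control and at 4.04, 3.83 and 10.6 CPM in the CR mice. H2-Aa measured 13.3, 11.2, 9.41 and 19.8 CPM in control SkM and 1.97, 2.09 and 3.93 CPM in CR. H2-Eb1 was at 7.73, 5.35, 5.56 and 11.4 CPM in the control and at 1.10, 0.672 and 2.02 CPM in the CR mice. CR replicate 3 was the highest CR library for all 3 genes but stayed below the lowest control. The log2 fold changes were -2.28 ± 0.38 for Cd74, -2.32 ± 0.31 for H2-Aa, -2.36 ± 0.38 for H2-Ab1 and -2.56 ± 0.38 for H2-Eb1, with edgeR adjusted p of 0.00503, 0.0013, 0.004 and 0.00208.

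H2-DMa and H2-DMb1 were lower on average in CR but overlapped the control libraries. H2-DMa was at 2.53, 1.58, 2.85 and 1.91 CPM in the control and 1.05, 0.869 and 1.60 CPM in the CR mice (log2 fold change -0.90 ± 0.29, edgeR adjusted p = 0.0615). H2-DMb1 stood at 1.10, 0.884, 1.45 and 1.12 CPM in the control and at 0.132, 0.198 and 0.917 CPM in the CR mice (-1.41 ± 0.51, edgeR adjusted p = 0.0959). Without CR replicate 3 both were called, at -1.20 and -2.74 on the log2 scale (edgeR adjusted p = 0.0383 and 0.00471). The CR libraries left then held 3 and 5 counts of H2-DMb1. It passed the filter on low counts through the control libraries, where it was high, so its fold change there rests on few counts. Ctss was at -0.25 ± 0.44 on the log2 scale (edgeR adjusted p = 0.744). The 4 called genes had no overlap between CR and control, which 14.2% of genes tested shared in this direction.

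Ciita was too low in SkM for the filter. It had 6, 4, 7 and 7 counts in the control, 0, 2 and 1 in the CR, 4, 9, 9 and 3 in the EX and 3, 3 and 1 in the CREX libraries. Summed over libraries and scaled to their size, the control held 6.65 times the CR level (exact 95% interval 2.02 to 34.5) and EX 2.99 times the CREX level (1.26 to 8.2), intervals that cover counting error only. Without the filter edgeR gave adjusted p of 0.0367 for CR against control and 0.203 for CREX against EX.

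Among trained mice, 5 of 7 genes were called lower in SkM of CREX against EX mice. H2-Aa fell from 9.502, 9.72, 7.46 and 6.85 CPM in EX to 3.66, 2.01 and 3.65 CPM in CREX. H2-Eb1 measured 5.52, 4.75, 4.93 and 4.57 CPM in EX and 1.96, 1.15 and 1.98 CPM in CREX mice. Cd74 measured 24.8, 26.9, 18.6 and 16.8 CPM in EX and 10.5, 3.78 and 8.33 CPM in CREX. No CREX library reached the EX range for these genes, and CREX replicate 2 was the lowest. The log2 fold changes were -1.43 ± 0.23 for H2-Aa, -1.46 ± 0.40 for H2-Ab1, -1.54 ± 0.22 for H2-Eb1, -1.18 ± 0.23 for H2-DMa and -1.53 ± 0.34 for Cd74 (edgeR adjusted p = 0.00877, 0.0486, 0.00592, 0.0138 and 0.0293). H2-DMb1 was at -0.96 ± 0.43 and Ctss at 0.06 ± 0.47 (adjusted p = 0.155 and 0.943).

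Of the 13112 genes tested in this comparison, 8.87% were called, 5.17% called lower, and 14.5% had all CREX libraries below all EX libraries, as the 5 called class II genes did. The calls of Cd74 and H2-Ab1 were the least stable. Leaving out CREX replicate 3 or EX replicate 1, 2 or 3 took the calls from 5 to 3, H2-Ab1 kept its call only without CREX replicate 2, and H2-DMa lost its call without that library (adjusted p = 0.0566).

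For EX against control in SkM, edgeR called 0 of 7 genes and DESeq2 0, while 3 had an unadjusted p under 0.05, as did 6.85% of all genes tested (0.0775% of all genes were called by edgeR). H2-Aa, H2-Ab1 and H2-Eb1 were at log2 fold changes of -0.69 ± 0.22, -0.50 ± 0.18 and -0.61 ± 0.22, with edgeR adjusted p of 0.454, 0.518 and 0.544. The libraries of EX and control overlapped for all 7 genes. In CREX against CR, 0 of 7 were called by edgeR, 0 had an unadjusted p under 0.05 and 0 were called by DESeq2 (0% of genes by edgeR).

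Over the 4 SkM groups, the average CR effect was called for 6 of 7 genes, with Ctss at -0.09 ± 0.35 on the log2 scale (edgeR adjusted p = 0.866). H2-Eb1 fell by 2.05, H2-Ab1 by 1.91, Cd74 by 1.91, H2-Aa by 1.87, H2-DMb1 by 1.19 and H2-DMa by 1.04 on the log2 scale, with edgeR adjusted p between 2.93e-05 and 0.0192 (0.0501 for H2-DMb1 without CREX replicate 2, and a log2 fold change of -1.85 without CR replicate 3). In this fit 14.1% of genes were called and 8.13% called lower. DESeq2 called 7 genes, those 6 and Ciita. The average EX effect was called for 0 of 7 genes by edgeR, with 0 at an unadjusted p under 0.05 and 0 by DESeq2 (0.0294% of genes by edgeR). In the interaction of CR and EX, edgeR and DESeq2 called 0 of 7 (0% of genes by edgeR) and 2 had an unadjusted p under 0.05, a level reached by 4.92% of all genes, H2-Aa at 0.91 ± 0.41 and H2-Eb1 at 1.03 ± 0.46, both with adjusted p = 0.941.

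Leukocyte genes were mostly not called in SkM. Of the pan-leukocyte genes, Ptprc fell in the average CR effect (log2 -1.03 ± 0.35, edgeR adjusted p = 0.0334) and the other 3 of 4 were not called. The pan-leukocyte sum was 3.86 to 6.62 CPM in the control, 2.69 to 3.40 in the CR, 3.54 to 5.25 in the EX and 1.60 to 5.83 CPM in the CREX mice. Of 10 macrophage genes tested, edgeR called 0, with a list median of -0.15, and the sums were 36.2 to 64.7 CPM in the control and 28.8 to 45.4 CPM in the CR mice. Of 3 dendritic cell genes tested, Clec9a and Cd209a fell (log2 -0.98 and -1.11). The class II sum was 10.2 to 18.2 times the pan-leukocyte sum in the control and 10.2 to 12.5 times in the EX mice, against 3.52 to 7.20 times in the CR and 3.71 to 6.77 times in the CREX mice. Groups with and without CR did not overlap in this ratio, whose relation to the calls was not tested. Of the other lists, Dio2 fell (log2 -1.91) among 3 brown adipocyte genes tested, 2 of 10 skeletal muscle genes rose, Mylpf and Actn3 (log2 0.75 and 1.40, Mylpf named after its value was seen), and the 2 lymph node stroma genes and 1 B cell gene tested were not called.

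The CR effect was then compared between the tissues. The labels do not tie libraries of BAT and SkM to the same mice, and the fit treats them as separate. For sedentary mice, edgeR called 0 of 8 genes as different between BAT and SkM, and H2-Aa and H2-Eb1 had an unadjusted p under 0.05 (differences of 0.82 ± 0.38 and 1.02 ± 0.41 on the log2 scale, the fall being larger in SkM, adjusted p = 0.206 and 0.139). Of all genes tested, 6.65% were called and 21.9% had an unadjusted p under 0.05, near the share of 2 in 8. H2-Eb1 was called without SkM CR replicate 3 (1.55, adjusted p = 0.0399). For trained mice, edgeR called 0 of 8, with 0 at an unadjusted p under 0.05 and 8.74% of all genes called, and Ctss was at -1.26 ± 0.66 (adjusted p = 0.246). DESeq2 was not run on these 2 contrasts. Ciita entered this fit through BAT libraries, where it was high, and its SkM counts were too few to judge a tissue difference.

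Control BAT held more RNA of all 8 genes than control SkM, with 58.8% of all genes called in that comparison. On CPM scaled over all libraries, Cd74 was at 70.9 ± 5.97 (SD, n = 3) in BAT and 32.6 ± 10.1 (n = 4) in SkM, H2-Aa at 42.8 ± 3.86 and 14.5 ± 5.02, and Ciita at 1.11 ± 0.03 and 0.289 ± 0.062. The differences ran from 0.62 ± 0.22 for H2-DMa to 1.95 ± 0.38 for Ciita on the log2 scale (edgeR adjusted p = 0.0129 and 5.88e-05). Ciita passed the filter on low counts through BAT libraries, where it was high. Its difference rests on 6, 4, 7 and 7 counts in control SkM. The calls of H2-DMa and H2-DMb1 were the weakest and fell away without SkM control replicate 2 or BAT control replicate 3 (adjusted p = 0.0561 to 0.0707 over the 2 genes). H2-DMa also dropped below the fold threshold with RLE size factors (log2 0.557), with the replicate block (0.583) and without SkM control replicate 4 (0.553). H2-DMb1 also lost its call without BAT control replicate 2 (edgeR adjusted p = 0.0507).

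Levels of different genes were set side by side per kilobase of merged GENCODE exons. In control BAT, Cd74 was highest at 46.4 CPM per kb ± 3.99 (SD, n = 3). H2-Eb1, H2-Aa and H2-Ab1 followed at 14.9 ± 2.46, 12.4 ± 1.14 and 11.8 ± 2.09. The SD ranges of these 3 overlapped, and their order was not tested within libraries. That order also depends on their merged exon lengths of 1944, 3798 and 2568 bases. Ctss was at 3.00 ± 0.33, H2-DMb1 at 1.46 ± 0.12, H2-DMa at 1.15 ± 0.15 and Ciita at 0.128 ± 0.004 CPM per kb. In control SkM Cd74 was again first at 17.95 ± 5.42 CPM per kb (n = 4), the chains lay between 3.54 and 4.16, and Ciita was last at 0.0281 ± 0.0059. Under CR in SkM, Ctss at 0.854 ± 0.367 CPM per kb (n = 3) stood beside the chains at 0.650 to 0.799.

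Proportions among the genes were compared within each library. Cd74 made up 38.9 to 41.2% of the summed CPM in control BAT and 35.5 to 41.0% under CR, and the ratio of H2-Aa to Cd74 CPM was 0.581 to 0.633 and 0.567 to 0.744. In SkM the ratio of Ctss to Cd74 CPM was 0.0211 to 0.064 in the control and 0.0277 to 0.0655 in the EX mice, but 0.144 to 0.337 in the CR and 0.0794 to 0.238 in the CREX mice. No mouse with CR had a ratio as low as any mouse without it. The ratio of H2-DMa to Cd74 CPM in SkM was 0.0449 to 0.126 in the control and 0.151 to 0.261 in the CR mice, without overlap, and 0.0941 to 0.141 in the EX and 0.103 to 0.239 in the CREX mice, which overlapped each other and the control.

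Other genes of the pathway were mostly not called. Among 9 endosomal processing genes, 1 was called in each tissue in the average CR effect, Ctsh, a cysteine protease gene (named after its values were seen), lower by 0.91 in BAT and 0.62 in SkM on the log2 scale. The list medians were -0.02 in BAT and -0.15 in SkM. Ctsb, the most abundant of them in BAT, was at 0.34 ± 0.04 there, under the fold threshold (adjusted p = 2.38e-05), and Ctsd, the most abundant in SkM, at -0.21 ± 0.10 (adjusted p = 0.107). Of 18 genes for class II transcription and interferon gamma signalling, Rfx5 and Irf8 fell and the receptor gene Ifngr1 rose in BAT (log2 -0.63, -0.77 and 0.80), with a list median of -0.11. In SkM, Prdm1 fell and Irf4 rose (log2 -1.13 and 1.56), with a median of 0.12. Rfx5, which encodes a subunit of the X box binding complex, Irf8, Prdm1 and Irf4 are named as the genes called, after their values were seen.

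Turnover, costimulation and class II ligand genes included 3 calls in BAT and 2 in SkM. In BAT 3 of 7 tested fell, Cd83 (log2 -1.56 ± 0.31), a surface protein that stabilises class II, Cd274 (-0.69 ± 0.22), the PD-L1 gene, and Cd4 (-1.36 ± 0.38), the coreceptor that binds class II. Cd4 averaged 0.603 CPM ± 0.243 (SD, n = 3) in the control, 0.247 ± 0.132 in the EX, 0.152 ± 0.074 in the CR and 0.143 CPM ± 0.082 in the CREX mice (n = 4 each). Its EX and CREX libraries overlapped, and its CR and CREX means lay near the level of 3 counts. In SkM 2 of 3 tested fell, Cd83 (-1.15 ± 0.40) and Cd274 (-0.79 ± 0.27). Of the other class II locus genes only H2-Ob, a chain of the DM inhibitor DO, could be tested, in BAT. It averaged 0.489 CPM ± 0.109 (SD, n = 3) in the control, 0.46 ± 0.032 in the EX, 0.0765 ± 0.0547 in the CR and 0.0799 ± 0.112 CPM in the CREX mice (n = 4 each) and was called (edgeR adjusted p = 0.00107). Its expected counts were 10 to 14 in the control, 9 to 12 in the EX, 0 to 3 in the CR and 0 to 6 in the CREX libraries, so that it passed the filter through the control and EX groups, and its fold change rests on few counts.

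**Figure D4:**
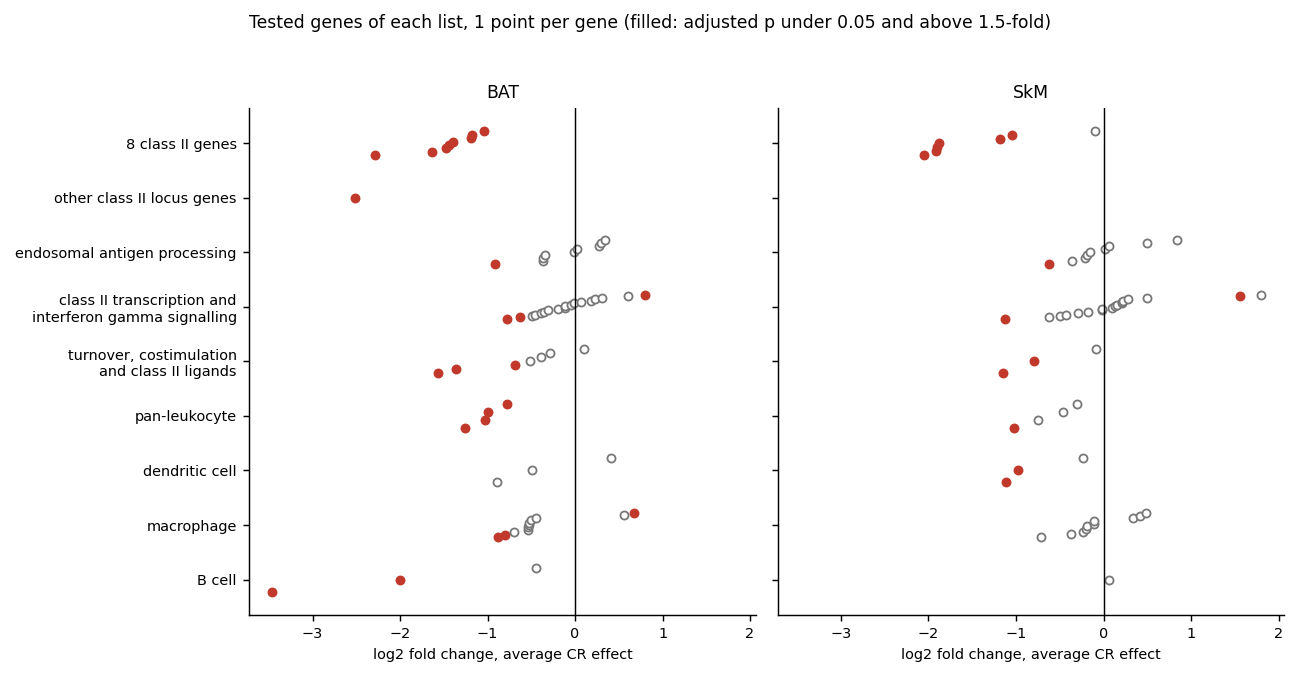
log2 fold change of the average CR effect (x axis) for each tested gene of the 8 class II genes, 4 related pathway lists and 4 leukocyte lists (rows) in BAT and SkM, filled where called. The class II genes lie between -2.29 and -1.04 in BAT, and most genes of endosomal processing and of transcription and interferon gamma signalling lie near 0 in both tissues.

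Genes with the profile most like that of the class II genes were found by the root mean square difference between centred log2 CPM values and the mean of H2-Aa, H2-Ab1, H2-Eb1 and Cd74. Over the 15 BAT libraries the nearest 5 genes besides the 8 were Gm39244, Mgl2, Arl4c, Sulf2 and Smoc2, at differences of 0.256 to 0.279 log2 units, where the 4 genes themselves lay at 0.052 to 0.098, H2-DMb1 and H2-DMa at 0.276 and 0.277, Ctss at 0.425 and Ciita at 0.444. Mgl2, a C-type lectin gene of macrophages and dendritic cells, was at 5.83 CPM ± 0.45 (SD, n = 3) in the control and 1.99 ± 0.50 in the CR, 5.81 ± 0.37 in the EX and 2.31 CPM ± 0.82 in the CREX mice (n = 4 each). Sulf2, an extracellular sulfatase gene, was at 51.2 ± 3.11 CPM in the control and 20.2 ± 0.80 CPM in the CR mice.

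Over the 14 SkM libraries the nearest genes were Fbn1, Col15a1, Mir1a-1hg, Col3a1 and Gm16118, at 0.392 to 0.447 log2 units, with Cd74 at 0.09, H2-Aa at 0.153, H2-DMb1 at 0.521, H2-DMa at 0.69 and Ctss at 1.08. Fbn1, Col15a1 and Col3a1 encode matrix proteins. Col3a1 was at 62.7 ± 6.74 CPM (n = 4) in the control and 10.1 ± 1.13 CPM (n = 3) in the CR mice. The likeness was measured with libraries of all 4 groups, so that it mainly follows which genes were lower in CR and CREX, and it is given as a description.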

How the data were processed

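RNA-seq libraries of BAT and SkM were used, 29 in all and 1 per mouse and tissue. Per the paper's methods and the submitters' processing notes, the authors trimmed reads with trim-galore, aligned them to mm10 with STAR 2.7.10a and quantified genes with RSEM. The RSEM version differs between these sources, and the gene annotation and strand setting are not given in the sources used here. The deposited values are expected counts per gene symbol, not normalized. Of them 6.11% were not whole numbers, but all 232 values of the 8 genes were, and 27 symbols had been turned into dates. No column of per-sample values was left unmatched.

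Expected counts were rounded. Each comparison was fitted on its own groups with edgeR 4.0.16 (R 4.3.3) after TMM scaling and the filterByExpr filter, using the robust quasi-likelihood test with Benjamini-Hochberg adjustment over all genes tested. Average effects and the interaction were fitted on the 4 groups of a tissue and tissue differences on all libraries. Standard errors are the log2 fold change divided by the square root of F. DESeq2 1.42.0, RLE size factors, other filters, no fold change minimum, a replicate block, 1 fit over all groups and each mouse left out were alternatives. Leaving out BAT libraries rich in muscle genes was a further alternative, chosen after seeing the data.

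The 8 genes and all gene lists were chosen with earlier results of these data known. All 8 genes are named. From each pathway and marker list the text names the most abundant gene and the gene with the smallest p for the average CR effect where they bear on a result. Any other gene of these lists was named after its values were seen. Besides those marked in the text, these include Cd53, Adgre1, Cd79b, Cd4 and Ccl21a in BAT and Cd209a and Cd83 in SkM. One gene that the rule picks is not reported here. The 5 genes nearest in profile are named. Coordinates and promoters are from RefSeq (GRCm38). Same-numbered mice did not deviate together, so the replicate block is only an alternative.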

Additional observations from a re-analysis of the deposited data

Results flagged for a closer look

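Ctss in BAT of EX mice stood apart in a single library. EX replicate 3 was at 9.474 CPM and the other EX mice at 3.33 to 4.16 CPM, a gap of 0.865 of the group's range, more than expected of 1 group of 4 at the 95% level. Among 45 groups of 4 libraries examined, 1 was flagged, and chance flags about 1 in 20. The same library had 3642 CPM of skeletal muscle genes and 18.7 CPM of pan-leukocyte genes, the highest pan-leukocyte sum in BAT.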

How the results depend on the processing

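Of the alternatives tried, 999 values were kept, 30 lost a call and 7 gained one. In addition, 8 counts of calls moved by over 1.5 times and 10 values changed sign. A gene's value was kept if its direction and side of the thresholds stayed. The kept values include genes and counts without a call that stayed without one. They also include a setting with no fold change minimum, which reuses the main fit and cannot change a fold change. The total is therefore no measure of how firm the calls are. A count of calls was kept if it moved by 1.5 times or less. All 8 class II genes kept their calls for the average CR effect in BAT under every alternative tried, and H2-Aa and H2-Eb1 kept theirs in SkM, as did Cd74, H2-Ab1 and H2-DMa. The count of called genes in CREX against EX of BAT went from 7 to 4 without the libraries rich in muscle genes. In SkM it went from 5 to 3 without a filter on low counts and ranged from 3 to 5 with single mice left out. For the difference of the CR effect between tissues in sedentary mice the count ranged from 0 to 1, with H2-Eb1 called without SkM CR replicate 3. H2-DMb1 lost its call for the average CR effect in SkM without CREX replicate 2 (adjusted p = 0.0501). The changes of sign were all in Ctss of SkM, which was not called: leaving out single mice gave log2 fold changes from -0.4335 to 0.069 for the average CR effect, from -0.5243 to 0.0664 for CR against control and from -0.6067 to 0.3626 for CREX against EX. The cause was not tested.

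With the replicate block, which pairs same-numbered mice, the count in CREX against EX of SkM was 2. H2-Aa and Cd74 in CREX against EX of BAT had adjusted p of 0.061 and 0.0587, and H2-Ab1, H2-DMa and Cd74 lost their calls in CREX against EX of SkM (0.12, 0.0521 and 0.0796). The block also ended the calls of Ctss in CR against control of BAT (adjusted p = 0.135) and of Cd74 in CR against control of SkM (0.0654), and there H2-DMa and H2-DMb1 gained calls (0.0212 and 0.0428). Ctss of SkM was at 0.0392 in CR against control and -0.3138 in CREX against EX. Same-numbered mice had mean correlations of deviations from -0.273 to 0.141 over the 8 comparisons, so their numbers are not taken as pairs. Depth limits Ciita in SkM and most dendritic, B and T cell genes, which stood near the level of 3 counts.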
